A study of Schmidtea mediterranea with 16 samples.

Results

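The 2 genes described here are smedwi-1 (dd_Smed_v6_659_0_1) and tgs-1 (dd_Smed_v6_10988_0_1), markers of the stem cells of the planarian Schmidtea mediterranea. They were chosen by identifier, 2 of the 26833 genes of the deposited count matrix, and both passed the filter on low counts. The deposited files list identifiers without gene names, so the names are those under which the identifiers were selected, smedwi-1 as a marker of all neoblasts and tgs-1 as a marker of a neoblast subclass. No other transcript in the files shared the first number of either identifier, so each gene stands for 1 transcript. The 16 RNA-seq libraries of poly(A) RNA came from sorted X1 cells, a flow cytometry gate of dissociated planarian cells with high DNA content that holds mostly dividing neoblasts. The groups, of 4 libraries each, were irradiated atm(RNAi), irradiated unc-22(RNAi), unirradiated atm(RNAi) and unirradiated unc-22(RNAi). Irradiated animals received 2000 rads and were sampled 1 day later, and all animals, controls included, had undergone RNA interference. The study asked how knockdown of atm affects the transcripts of these cells. How far atm itself was depleted is not analysed here, so the RNAi groups rest on their labels.

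Neoblasts are the dividing cells of the adult planarian and the source of new tissue, and ionizing radiation depletes them. smedwi-1 encodes a PIWI-family protein, a class of proteins that bind small piRNAs, and its transcript is the usual label of neoblasts in this animal. tgs-1 is used as a marker of a subclass within the neoblasts. The kinase ATM acts in the cellular response to double-strand breaks in DNA, and unc-22, a nematode gene, is a common control target for planarian RNAi. In a bulk sample, fewer cells of a type and less RNA per cell cannot be told apart, so every level below is an average over the sorted cells of a library. Nothing in the labels says that replicates came from separate groups of animals, so p-values measure the spread between these libraries, which may be technical. The main fit estimated the spread of a gene from all 16 libraries, so standard errors (SE) and p-values also hold spread from groups outside a contrast.

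Gene counts summed to at least 6.99 M and at most 26.5 M reads per library (M, 1000000 reads). Depth was 13.9 M to 21.8 M in irradiated atm(RNAi), 6.99 M to 15.1 M in irradiated unc-22(RNAi), 18.8 M to 25.3 M in unirradiated atm(RNAi) and 17.8 M to 26.5 M in unirradiated unc-22(RNAi). Irradiated unc-22(RNAi) had the lowest mean depth, 11.3 M ± 3.42 M (SD, n = 4), and overlapped irradiated atm(RNAi). Irradiated unc-22(RNAi) libraries also had the highest share of unmapped reads, which averaged 39.7% ± 2.85 in irradiated atm(RNAi), 61.4% ± 8.84 in irradiated unc-22(RNAi), 30.6% ± 5.43 in unirradiated atm(RNAi) and 38.2% ± 6.38 in unirradiated unc-22(RNAi) (SD, n = 4 each). smedwi-1 was abundant in every library: between 12 and 36 genes had more reads than it, without regard to gene length. The defining neoblast marker was thus present in all 16 libraries labelled as X1 cells.

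smedwi-1 was lower after irradiation in unc-22(RNAi) cells and was not called in atm(RNAi) cells. Levels are CPM, reads of the gene per 1000000 reads of the library after TMM scaling. In irradiated atm(RNAi), replicates 1 to 4 had 5919, 3579, 4546 and 5772 CPM. In irradiated unc-22(RNAi) they had 5017, 1452, 3966 and 2930 CPM. In unirradiated atm(RNAi) they had 5417, 5341, 5479 and 5514 CPM. The unirradiated atm(RNAi) libraries were nearly alike, while the irradiated groups spread widely and overlapped each other. In unirradiated unc-22(RNAi) smedwi-1 had 5585, 5377, 5217 and 5786 CPM. All 4 irradiated unc-22(RNAi) libraries lay below all 4 unirradiated ones, as for 21.7% of tested genes, although replicate 1 of the irradiated group, at 5017 CPM, came close to the lowest unirradiated library. In atm(RNAi), replicates 1 and 4 of the irradiated group lay above all unirradiated atm(RNAi) libraries and replicates 2 and 3 below them.

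**Figure D1:**
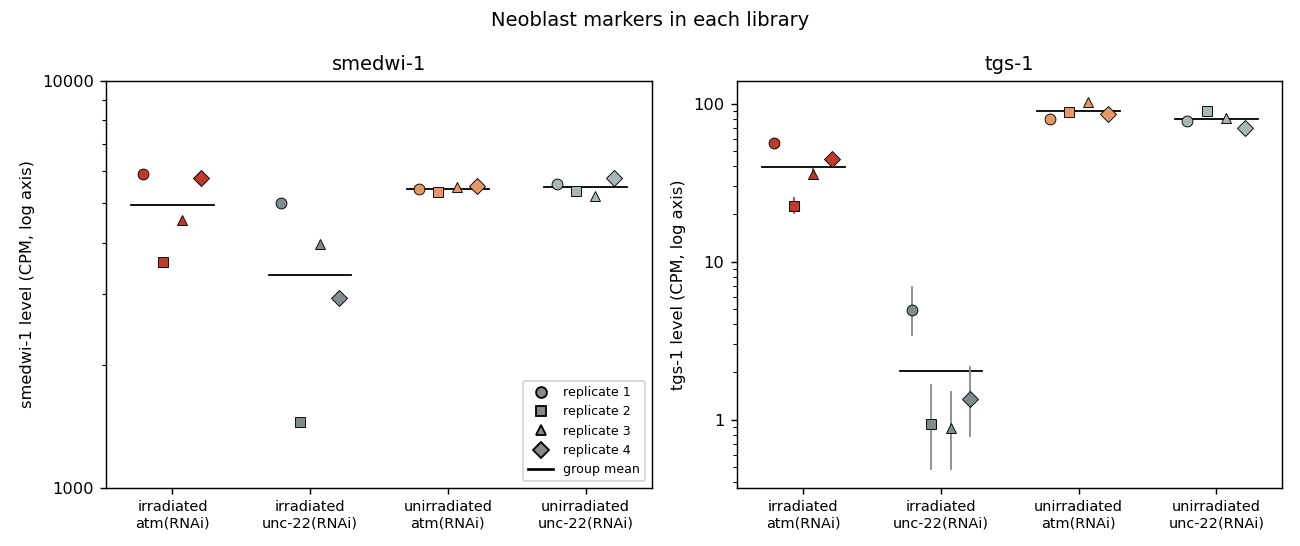
Level of smedwi-1 (left) and tgs-1 (right) in CPM on log axes, 1 point per library with a marker shape per replicate number; black lines are group means and vertical lines are 95% exact Poisson intervals of the reads, which cover counting error only. tgs-1 lies between 22.6 and 56.2 CPM in irradiated atm(RNAi) and between 0.887 and 4.96 CPM in irradiated unc-22(RNAi), while smedwi-1 overlaps between these groups.

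Relative to the unirradiated mean of the same RNAi group, smedwi-1 stood at 91.1% ± 20.3 in irradiated atm(RNAi) and at 60.8% ± 27.7 in irradiated unc-22(RNAi) (SD, n = 4 each). The lowest irradiated library was at 65.8% in atm(RNAi) and at 26.4% in unc-22(RNAi). Irradiated libraries varied more than unirradiated ones. The SD of smedwi-1 in log2 CPM was 0.34 in irradiated atm(RNAi) and 0.78 in irradiated unc-22(RNAi), against 0.020 in unirradiated atm(RNAi) and 0.065 in unirradiated unc-22(RNAi). The median SD over all tested genes was 0.49, 0.66, 0.32 and 0.40 in the same groups. smedwi-1 was thus steadier than this median in unirradiated cells and more variable than it in irradiated unc-22(RNAi) cells. The median was not matched for read number, and counting error is small for a gene with as many reads as smedwi-1.

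The irradiation effect on smedwi-1 in unc-22(RNAi) was a log2 fold change of -0.72 ± 0.26 (SE), a level 1.64-fold lower in irradiated cells (adjusted p = 0.0322, quasi-likelihood test of edgeR, adjusted by Benjamini-Hochberg over 17843 genes). Both genes were called lower in this contrast, where 23.5% of all tested genes were called lower, and 23.2% of tested genes had a log2 fold change below that of smedwi-1. Irradiation of atm(RNAi) cells gave -0.13 ± 0.26 in log2 for smedwi-1 (SE; adjusted p = 0.847, edgeR), a contrast in which 1.15% of tested genes were called lower. Between the RNAi groups after irradiation it was 0.57 ± 0.26 (SE; adjusted p = 0.148, edgeR), with atm(RNAi) the higher, and 11.5% of tested genes were called higher there. Without irradiation the RNAi groups differed by -0.01 ± 0.26 in log2 (SE; adjusted p = 1, edgeR). This SE also holds the spread of the irradiated groups, which was wider than that of the unirradiated groups compared here. Over all tested genes the median irradiation effect in unc-22(RNAi) was 0.17 in log2, and 0.24 to 0.32 with other scaling factors, so the values of both genes stand lower still against the typical gene there. The interaction, the irradiation effect in atm(RNAi) minus that in unc-22(RNAi), was 0.58 ± 0.37 (SE; adjusted p = 0.379, edgeR). The smaller effect in atm(RNAi) was therefore not separated from that in unc-22(RNAi) by this test. The call in unc-22(RNAi) was near the threshold: it was lost in the fit of the compared groups alone (adjusted p = 0.0881, edgeR), with upper quartile factors (0.0648) and without irradiated replicate 4 (0.0813) or unirradiated replicate 1 (0.0588), 2 (0.0542) or 4 (0.0668) of unc-22(RNAi). Without irradiated unc-22(RNAi) replicate 1 the difference between RNAi groups after irradiation became 0.87 and passed the test (adjusted p = 0.0229, edgeR).

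smedwi-1 averaged 4954 ± 1104 CPM in irradiated atm(RNAi), 3341 ± 1521 in irradiated unc-22(RNAi), 5438 ± 76.3 in unirradiated atm(RNAi) and 5491 ± 248 in unirradiated unc-22(RNAi) (SD, n = 4 each). The order from low to high was irradiated unc-22(RNAi), irradiated atm(RNAi), unirradiated atm(RNAi) and unirradiated unc-22(RNAi). No pair of neighbours in this order differed at an adjusted p under 0.05.

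tgs-1 was nearly lost from irradiated unc-22(RNAi) cells and stood 21.9-fold higher in irradiated atm(RNAi) cells. In irradiated atm(RNAi), replicates 1 to 4 had 1132, 349, 749 and 904 reads, or 56.2, 22.6, 36.1 and 44.6 CPM. In irradiated unc-22(RNAi) they had 35, 12, 14 and 17 reads, or 4.96, 0.943, 0.887 and 1.35 CPM. The highest of these libraries, replicate 1, was below the lowest irradiated atm(RNAi) library, whose 349 reads have a 95% exact Poisson interval of 313 to 388. The interval for the 35 reads was 24.4 to 48.7 and that for the 14 reads 7.65 to 23.5, so counting error is large within irradiated unc-22(RNAi). In unirradiated atm(RNAi) tgs-1 had 80.2, 88.6, 102 and 85.9 CPM. In unirradiated unc-22(RNAi) it had 77.0, 89.6, 81.3 and 69.9 CPM. Unirradiated groups overlapped each other, and each irradiated group lay entirely below its unirradiated group, as for 8.12% of tested genes in atm(RNAi) and 21.7% in unc-22(RNAi).

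tgs-1 stood at 44.7% ± 15.9 of the unirradiated mean in irradiated atm(RNAi) and at 2.56% ± 2.47 in irradiated unc-22(RNAi) (SD, n = 4 each). The single libraries ran from 25.3% to 63.0% in irradiated atm(RNAi) and from 1.12% to 6.24% in irradiated unc-22(RNAi). The spread was again wider after irradiation, with an SD in log2 CPM of 0.56 in irradiated atm(RNAi) and 1.10 in irradiated unc-22(RNAi), against 0.15 in each unirradiated group. Within irradiated atm(RNAi), tgs-1 and smedwi-1 ranked the libraries alike, from replicate 1 through 4 and 3 to 2. Within irradiated unc-22(RNAi), replicate 1 was highest for both genes.

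Irradiation of unc-22(RNAi) cells lowered tgs-1 43.6-fold, a log2 fold change of -5.45 ± 0.43 (SE; adjusted p = 2.24e-07, edgeR). Of the 17843 tested genes, 93 or 0.521% had a lower log2 fold change in this contrast. In atm(RNAi) cells the level was 2.24-fold lower, a log2 fold change of -1.16 ± 0.33 (SE), which did not pass the test (adjusted p = 0.0568, edgeR). This value was near the threshold and passed it with other tools, at an adjusted p of 0.00676 in DESeq2 and 0.00295 in limma-voom. It also passed in edgeR without irradiated atm(RNAi) replicate 1 (adjusted p = 0.0182) or irradiated unc-22(RNAi) replicate 1 (0.00579) or 2 (0.0325). Irradiated unc-22(RNAi) is outside this contrast but enters its estimate of spread. Without irradiated unc-22(RNAi) replicate 1 the effect was -1.17 and the SE fell to 0.21. The compared groups alone gave -1.14 ± 0.21 (SE; adjusted p = 0.0181, edgeR). The value moved away from the threshold without irradiated atm(RNAi) replicate 2 (adjusted p = 0.188, edgeR), 3 (0.160) or 4 (0.0857), and in lane 8 alone (0.929). It also did so without unirradiated atm(RNAi) replicate 1 (adjusted p = 0.132, edgeR), 2 (0.122), 3 (0.147) or 4 (0.125).

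After irradiation tgs-1 was 21.9-fold higher in atm(RNAi) than in unc-22(RNAi) cells, a log2 fold change of 4.45 ± 0.41 (SE; adjusted p = 1.95e-05, edgeR). Only 123 of the tested genes, 0.689%, had a higher log2 fold change there, and all 4 atm(RNAi) libraries lay above all 4 unc-22(RNAi) libraries, as for 10.5% of tested genes. Without irradiation the RNAi groups differed by 0.17 ± 0.33 in log2 (SE; adjusted p = 1, edgeR), with 89.2 ± 9.27 CPM in atm(RNAi) and 79.5 ± 8.23 CPM in unc-22(RNAi) (SD, n = 4 each). In that contrast edgeR called 0 of the tested genes, 0% in either direction, with 278 at an unadjusted p under 0.05. These are a share of the 17843 tested genes below 0.05, so the test was strict here. The 0 calls thus do not show that the unirradiated RNAi groups are alike. DESeq2 called 1 and limma-voom 0. A fit of the irradiated groups alone gave 4.29 for the difference after irradiation, at an adjusted p of 0.0634 (edgeR).

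**Figure D2:**
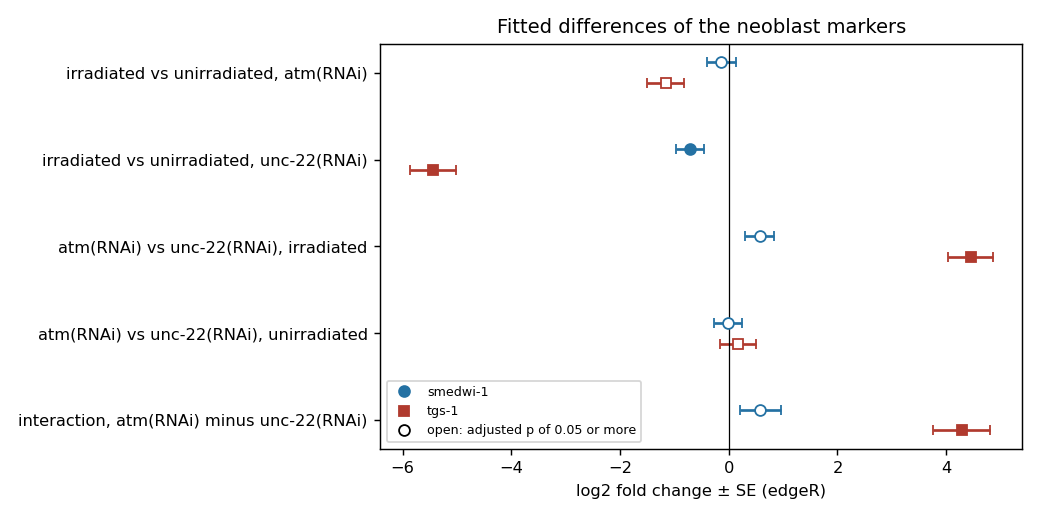
Log2 fold changes of smedwi-1 (circles) and tgs-1 (squares) with SE in the 5 contrasts of the edgeR fit; filled symbols have an adjusted p under 0.05. For irradiation, tgs-1 is at -1.16 in atm(RNAi) and at -5.45 in unc-22(RNAi), and smedwi-1 is at -0.13 in atm(RNAi) and at -0.72 in unc-22(RNAi).

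The test of the difference between the irradiation effects passed for tgs-1. Its interaction was 4.28 ± 0.52 in log2 (SE; adjusted p = 0.00104, edgeR). As fitted, the irradiated share of the unirradiated level was thus 19.5-fold larger in atm(RNAi) than in unc-22(RNAi). Fitted folds can differ from ratios of the mean CPM or of the mean shares. The interaction was called positive for 3.07% of tested genes, and 2 genes had a smaller p than tgs-1. After irradiation tgs-1 averaged 39.9 ± 14.2 CPM in atm(RNAi) and 2.03 ± 1.96 CPM in unc-22(RNAi) (SD, n = 4 each). The order of mean levels from low to high was irradiated unc-22(RNAi), irradiated atm(RNAi), unirradiated unc-22(RNAi) and unirradiated atm(RNAi). Of the neighbours in this order, only the irradiated RNAi groups differed at an adjusted p under 0.05 among the pairs tested; irradiated atm(RNAi) and unirradiated unc-22(RNAi) were not tested against each other. Without irradiated unc-22(RNAi) replicate 1, the library with the most tgs-1 in its group, the irradiation effect in unc-22(RNAi) was -6.29, the difference between irradiated RNAi groups 5.29 and the interaction 5.12 in log2.

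Libraries were sequenced on lanes 7 and 8, with 2 libraries of each group on each lane per the file names. In every group lane 8 held replicates 1 and 2 and lane 7 held replicates 3 and 4. A difference between lanes therefore cannot be told apart from one between these replicates. Within lane 7 the tgs-1 interaction was 4.84 (adjusted p = 0.00226, edgeR), and within lane 8 it was 3.80 (adjusted p = 0.852, edgeR). The irradiation effect on tgs-1 in unc-22(RNAi) was -6.14 within lane 7 (adjusted p = 4.19e-05) and -4.88 within lane 8 (adjusted p = 0.0472, edgeR). For smedwi-1 in unc-22(RNAi) it was -0.72 within lane 7 (adjusted p = 0.0117) and -0.74 within lane 8 (adjusted p = 0.415, edgeR). The direction was thus the same on both lanes for these values.

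**Figure D3:**
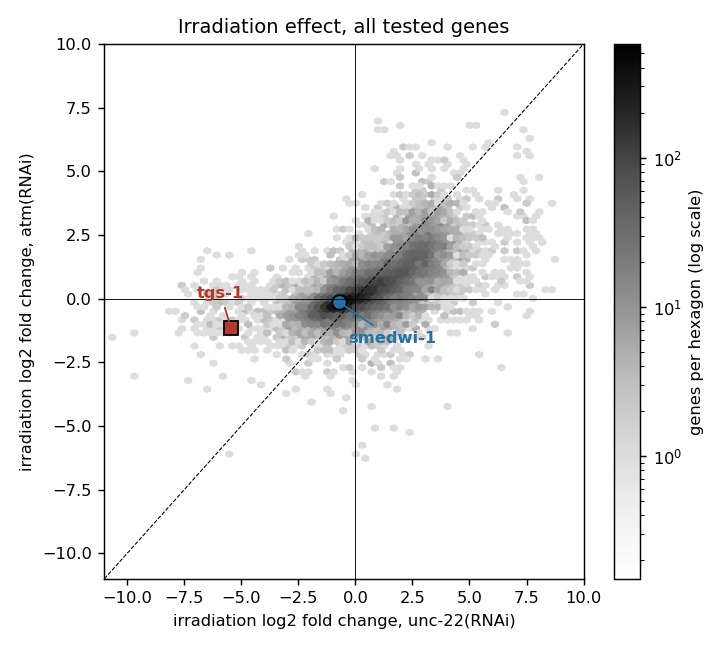
Irradiation log2 fold change in atm(RNAi) (vertical) against that in unc-22(RNAi) (horizontal) for 17843 tested genes, as hexagons shaded by the number of genes on a log scale, with the dashed line at equal effects. tgs-1 (square) lies at -1.16 in atm(RNAi) and -5.45 in unc-22(RNAi), far left of the line, and smedwi-1 (circle) at -0.13 in atm(RNAi) and -0.72 in unc-22(RNAi), within the bulk of genes.

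The ratio of tgs-1 to smedwi-1 reads within a library needs no scaling between libraries, and gene length cancels when it is compared between them. In irradiated atm(RNAi) there were 9.49, 6.31, 7.93 and 7.73 tgs-1 reads per 1000 smedwi-1 reads in replicates 1 to 4. In irradiated unc-22(RNAi) there were 0.988, 0.649, 0.224 and 0.460. Unirradiated libraries ran from 14.8 to 18.6 in atm(RNAi) and from 12.1 to 16.7 in unc-22(RNAi). Irradiated atm(RNAi) libraries therefore lay between the unirradiated libraries and those of irradiated unc-22(RNAi), with no overlap on either side.

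The log2 ratio differed by -1.07 between irradiated and unirradiated atm(RNAi) cells and by -4.79 between irradiated and unirradiated unc-22(RNAi) cells, each at an exact two-sided permutation p of 0.0286, the smallest that 70 splits can give. Relative to smedwi-1, tgs-1 was thus 2.10-fold lower after irradiation in atm(RNAi) and 27.6-fold lower in unc-22(RNAi). Between irradiated RNAi groups the log2 ratio differed by 3.90 (exact permutation p = 0.0286), and between unirradiated ones by 0.18 (exact permutation p = 0.257). The interaction was 3.72 (exact permutation p = 0.0253 over 4900 regroupings of the RNAi labels within each irradiation state). These regroupings assume no RNAi effect in either state, so this p does not test whether the irradiation effects are equal. It is also not independent of the test between irradiated RNAi groups. After Benjamini-Hochberg adjustment over these 5 tests, each exact permutation p became 0.0357 except that between unirradiated groups, which stayed at 0.257.

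**Figure D4:**
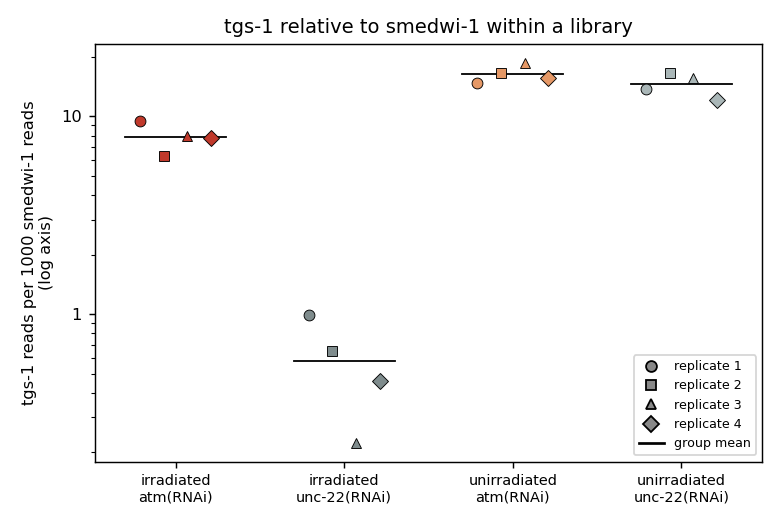
tgs-1 reads per 1000 smedwi-1 reads in each library on a log axis, 1 point per library with a marker shape per replicate number; black lines are group means. The 4 irradiated atm(RNAi) libraries lie between 6.31 and 9.49 and the 4 irradiated unc-22(RNAi) libraries between 0.224 and 0.988, below all unirradiated libraries.

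Measures of the libraries moved with some of these results, and their part in them was not tested. In irradiated atm(RNAi) the unmapped share of replicates 1 to 4 was 36.9%, 43.7%, 38.7% and 39.6%, and the library with the highest share, replicate 2, had the least of both genes. In irradiated unc-22(RNAi) it was 65.6%, 70.9%, 50.5% and 58.5%, and replicate 2 again had the highest share and the least smedwi-1. Replicate 1, at 65.6%, had the most of both genes in that group, so the share did not order its libraries. The 2 genes with the most reads in the series took 9.09%, 20.9%, 10.6% and 17.1% of the counts in these 4 libraries, an order opposite to that of their smedwi-1 levels. For tgs-1, replicate 1 was highest, and the intervals of the 12, 14 and 17 reads in the other libraries overlap, so these 3 could not be ordered. In irradiated atm(RNAi) the share of the 2 genes with the most reads did not order the smedwi-1 levels. There replicate 2, with the least smedwi-1, had a share of 7.83%, below the 10.3% of replicate 3.

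Genes with the most similar pattern were found by the root mean square difference of log2 CPM over the 16 libraries, each gene centred on its own mean. The nearest gene to smedwi-1 was dd_Smed_v6_1258_0_1, at 0.064, where the median gene was at 0.93 from smedwi-1. It had 3194 ± 588 CPM in irradiated atm(RNAi), 2069 ± 863 in irradiated unc-22(RNAi), 3576 ± 72.0 in unirradiated atm(RNAi) and 3577 ± 190 in unirradiated unc-22(RNAi) (SD, n = 4 each). The 20 nearest genes to smedwi-1 lay within 0.106, and their median irradiation log2 fold change was -0.15 in atm(RNAi) and -0.70 in unc-22(RNAi). The distance also holds counting error, which is small for a gene with as many reads as smedwi-1.

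The nearest gene to tgs-1 was dd_Smed_v6_32297_0_1, at 0.67, a gene of low counts, a distance that also holds the counting error of the few tgs-1 reads in irradiated unc-22(RNAi), where the median gene was at 2.48 from tgs-1. It had 2.42 ± 1.21 CPM in irradiated atm(RNAi), 0.248 ± 0.403 in irradiated unc-22(RNAi), 6.58 ± 0.821 in unirradiated atm(RNAi) and 5.70 ± 2.48 in unirradiated unc-22(RNAi) (SD, n = 4 each), with 8 reads in all 4 irradiated unc-22(RNAi) libraries together. The 20 nearest genes to tgs-1 lay within 0.98, with median irradiation log2 fold changes of -0.86 in atm(RNAi) and -4.87 in unc-22(RNAi). smedwi-1 and tgs-1 were 2.02 apart. Of the 17843 tested genes, 2811 were nearer to tgs-1 than smedwi-1 was, and 16805 were nearer to smedwi-1 than tgs-1 was. The lists of nearest genes were chosen for their pattern, so their fold changes are a description of it.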

How the data were processed

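The authors deposited raw read counts, per the file headers and values, as a matrix of all libraries and as a file per library in the layout of STAR gene counts. Trim Galore 0.6.5 and STAR 2.7.9 are named per the submitters' processing notes; their settings are not given in the sources used here. Libraries were made with a directional kit, per the labels' protocols. The matrix equalled the reverse-strand counts of the per-library files, with 0 of 429328 cells differing. Reads that map to several places are left out of such counts, which makes genes with close copies uncertain. Gene totals ranged from 6.99 M to 26.5 M reads per library (M, 1000000 reads), and no per-sample column was left out.

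All genes were fitted with edgeR 4.0.16 in R 4.3.3. filterByExpr kept 17843 of 26833 genes, TMM factors scaled the libraries, and 1 quasi-likelihood fit of 16 libraries had a coefficient per group. P values were adjusted by Benjamini-Hochberg over all tested genes and called under 0.05. Each SE is the log2 fold change divided by the square root of F. The ratio used a pseudocount of 0.5 reads, and log2 CPM a prior count of 2. Intervals are exact Poisson at 95% and cover counting error only: without molecular identifiers, reads are not independent molecules. In each of 24 within-group pairs, libraries differed beyond sampling noise, with a chi-square divided by its degrees of freedom no lower than 9.18. The fit was tested on simulated data drawn with the same spread of a gene in all groups, unlike the 2 members here.

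Besides the 2 members, the text names for each the 1 tested gene with the nearest pattern. A list of further marker genes could not be matched, since the files hold no gene names, and is not analysed here. The members and lists were chosen with earlier results of these data known. Alternatives were other scaling factors, no filter, DESeq2 1.42.0, limma 3.58.1, the compared groups alone, a replicate block, the lane, each lane alone, both strands, the transcript level, another pseudocount and each library left out.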

Additional observations from a re-analysis of the deposited data

Results flagged for a closer look

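Irradiated unc-22(RNAi) replicate 1 stood apart from the other 3 libraries of its group in tgs-1, at 4.96 CPM against 0.887 to 1.35 CPM. Its gap to the next library was 0.886 of the range of the group in CPM, past the 95% critical value of Dixon's test, and 0.766 of the range in log2 CPM, which did not pass it, so the mark depends on the scale. Among groups of 4 values examined in this way, chance marks about 1 in 20. Both genes were examined in all 4 groups on both scales, and no other value passed. Irradiated unc-22(RNAi) replicate 1 had 6.99 M reads (M, 1000000 reads) in genes, the fewest of the series, and 35 tgs-1 reads.

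The irradiation effect differed between RNAi groups for tgs-1, with an interaction of 4.28 in log2 (adjusted p = 0.00104, edgeR quasi-likelihood test). The log2 ratio of tgs-1 to smedwi-1 had an interaction of 3.72 (exact permutation p = 0.0253). That p assumes no RNAi effect in either irradiation state, so it does not test whether the irradiation effects on the ratio are equal.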

How the results depend on the processing

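The direction of each tgs-1 and ratio value held under all settings run, and that of smedwi-1 held except in the difference of unirradiated RNAi groups, -0.01, which was 0.026 with library totals alone and ran from -0.042 to 0.019 with a library left out. The irradiation effect on tgs-1 in atm(RNAi), not called in the reported fit, was called with library totals alone (-1.18), no filter (-1.23), DESeq2 (-1.16), limma-voom (-1.22), limma-voom with a spread per group (-1.21), the compared groups alone (-1.14), a replicate block (-1.24) and lane 7 alone (-1.30); with a library left out it ran from -1.35 to -0.97 and was called in 3 of 16 fits. The irradiation effect on smedwi-1 in unc-22(RNAi) was not called with upper quartile factors (-0.64), the compared groups alone (-0.68) or lane 8 alone (-0.74); with a library left out it ran from -1.04 to -0.48 and lost the call in 4 of 16 fits. The smedwi-1 difference between irradiated RNAi groups ran from 0.33 to 0.87 with a library left out. For tgs-1 that difference was not called in the compared groups alone (4.29) or lane 8 alone (3.82), and its interaction was not called in lane 8 alone (3.80). Lane 8 alone and lane 7 alone have 2 libraries a group, and the compared groups alone 2 groups, so these settings hold fewer samples; for the interaction all groups stay, and the compared groups alone give no value.

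The ratio could not pass within lanes or under sign flips of pairs, whose smallest exact p values are 0.333 for 2 against 2 and 0.125. For irradiation in atm(RNAi) it was -1.12 in lane 7 and -1.02 in lane 8, in unc-22(RNAi) -5.37 and -4.20, between irradiated RNAi groups 4.56 and 3.23, and for the interaction 4.25 and 3.19; under the replicate block the values were those reported, -1.07, -4.79, 3.90 and 3.72. Same-numbered libraries of the compared groups deviated together at correlations from -0.074 to 0.43 over genes. The highest were those of replicates 1 (0.43) and 2 (0.31) between irradiated RNAi groups, where replicates 3 and 4 had 0.062 and -0.074. In the other comparisons none was above 0.12, so the numbers are not shown to pair the libraries throughout. The replicate block changed no other call of either gene, and it moved the number of genes called for the interaction to 1258. The number of genes called over the whole table moved more: with the settings other than leaving out a library it ran from 0 to 2000 for irradiation in atm(RNAi) against 638 reported, from 58 to 9266 in unc-22(RNAi) against 8442, from 0 to 4252 between irradiated RNAi groups against 2645, from 0 to 1 between unirradiated ones against 0, and from 0 to 1432 for the interaction against 638. Depth limits tgs-1 in irradiated unc-22(RNAi), with 78 reads over 4 libraries.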

Other observations

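Reads on the strand opposite to the counted one were few for tgs-1 in most libraries. Over the 4 irradiated unc-22(RNAi) libraries 1 such read was seen beside 78 counted reads, and over the 4 irradiated atm(RNAi) libraries 78 beside 3134. The 1 read was 6.67% of the tgs-1 reads on both strands in irradiated unc-22(RNAi) replicate 3. In unirradiated unc-22(RNAi) replicate 4, 85 tgs-1 reads or 4.63% were on the opposite strand.

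The position of each gene among all genes by number of reads, which needs no scaling and takes no account of length, moved in the same way as the levels. Between 13 and 17 genes had more reads than smedwi-1 in irradiated atm(RNAi) and between 17 and 36 in irradiated unc-22(RNAi), against 12 to 15 in unirradiated atm(RNAi) and 13 to 17 in unirradiated unc-22(RNAi). For tgs-1 the number of genes with more reads was 2779 to 5114 in irradiated atm(RNAi) and 9077 to 14959 in irradiated unc-22(RNAi), against 1662 to 2046 in unirradiated atm(RNAi) and 1833 to 2344 in unirradiated unc-22(RNAi).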
